A study of Mus musculus with 41 samples.

Results

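The sites described here are 5810 peaks of dTA-SOX9, a form of the transcription factor SOX9 that lacks the transactivation domain, which lay where MLL3/4 was found in keratinocytes without induction and where wild-type SOX9 (WT-SOX9) had no peak. The uninduced MLL3/4 list came from cells with the WT-SOX9 transgene, as no list of uninduced dTA-SOX9 cells was used here. They made up 51.2% of the 11341 MYC-tag peaks of dTA-SOX9 and 5810 of the 328085 peaks in all 18 lists of the series. The sites were chosen from measured peaks. Each is a dTA-SOX9 (noTA in the labels) MYC-tag peak overlapped by at least 1 bp by an MLL3/4 peak of cells without doxycycline (DOX), and by no MYC-tag peak of WT-SOX9 cells with DOX, of the same cells without DOX, or of dHMG-SOX9 cells (noHMG, lacking the DNA-binding HMG domain). They are called dTA-only MLL3/4 sites below.

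In CUT&RUN (CNR), a nuclease brought to a protein by its antibody releases short pieces of DNA, which are sequenced to place the protein on chromatin. Of 41 mouse samples in 25 groups, 9 single ones, for JUN, BRG1 and ARID1a, had no peak list here and were not analysed here. The cultured cells were keratinocytes from male CD1 mice with the genotypes K14rtTA; TRE-myc-Sox9 (WT-SOX9, with and without DOX), K14rtTA; TRE-myc-Sox9noTA and K14rtTA; TRE-myc-Sox9noHMG (both with DOX). According to the methods, each TRE transgene came into K14rtTA cells by lentivirus under puromycin selection, so that all cultured groups were transduced pools and the cells without DOX also carried the WT-SOX9 transgene. MYC-tag and MLL3/4 CNR were each pooled from 2 samples per group, and replicate 1 without DOX also had a list of its own for each antibody. The in vivo lists came from epidermal stem cells sorted from back skin of male K14rtTA; TRE-myc-Sox9 CD1 mice before DOX (D0) and after 1 (W1), 2 (W2), 6 (W6) and 12 weeks (W12) of DOX for SOX9, and at D0, W1 and W2 for MLL3/4, again 2 samples each. The mice were 21, 28, 35 and 63 postnatal days old at D0, W1, W2 and W6, and the W12 skin was grafted, so that age and grafting cannot be told apart from the weeks of DOX.

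With 1 list per group, no test over samples was possible. Shares are given with 95% Wilson intervals over peaks and differences of shares with Newcombe intervals. These cover counting error only and treat neighbouring peaks as independent. At their promoters, the cells without DOX had an MLL3/4 peak at the keratin genes *Krt5* and *Krt14* and none at the keratinocyte genes *Trp63* and *Itga6*. Of genes of other skin cells, *Pecam1* of endothelium had one and *Ptprc*, *Pdgfra* and *Mlana* had none.

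SOX9 directs hair follicle stem cell fate and bends DNA through its HMG domain, and its transactivation domain binds coactivators. MLL3 and MLL4 (KMT2C and KMT2D) are histone methyltransferases that place H3K4 monomethylation at enhancers. In keratinocytes many active enhancers also carry AP1, a dimer of FOS and JUN family proteins that reads the sequence TGACTCA.

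The sequences below are the 101-bp windows around the centre of the maximum for the strongest sites that contain an AP1 word (TGACTCA on either strand) or a SOX word (CCATTGT or CCTTTGT on either strand, with C or G as the first letter), to show which letters lay under the peaks. They are the plus strand of mm10 as in the GRCm38 reference, and capitals mark the words. Windows on an exon, such as that of the *Cds2* site, or on 1 chromosome left out of printing, such as that of the *Ctif* site, were passed over in every set. Of the others, the first 3 are the dTA-only MLL3/4 sites of highest total signal with an AP1 word, named by the nearest protein-coding gene. The site at *Cpe*, which encodes carboxypeptidase E, and that at *Itprid2* were intergenic, and that at *Atxn10*, the ataxin 10 gene, was intronic.
Cpe site, chr8:64522870-64522970: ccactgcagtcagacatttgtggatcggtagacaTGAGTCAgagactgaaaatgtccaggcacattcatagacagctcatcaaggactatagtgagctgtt
Itprid2 site, chr2:79555506-79555606: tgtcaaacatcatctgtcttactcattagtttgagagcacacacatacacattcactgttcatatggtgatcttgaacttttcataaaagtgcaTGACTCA
Atxn10 site, chr15:85347231-85347331: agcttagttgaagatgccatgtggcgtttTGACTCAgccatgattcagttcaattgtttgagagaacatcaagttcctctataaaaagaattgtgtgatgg
The next 2 are the highest with a SOX word and no AP1 word, at the start of a noncoding transcript near *Mreg* and between genes near *Tprg*, a neighbour of *Trp63*. The third line is the highest with both words, in an intron of *Lypd6b*.
Mreg site, chr1:72226645-72226745: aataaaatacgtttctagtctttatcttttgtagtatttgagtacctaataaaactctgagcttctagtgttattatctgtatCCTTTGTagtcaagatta
Tprg site, chr16:25485017-25485117: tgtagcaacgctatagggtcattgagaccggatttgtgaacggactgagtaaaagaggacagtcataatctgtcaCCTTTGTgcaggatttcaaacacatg
Lypd6b site, chr2:49911502-49911602: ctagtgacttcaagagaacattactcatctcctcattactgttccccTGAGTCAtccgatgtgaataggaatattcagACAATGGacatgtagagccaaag
For comparison, the 2 strongest WT-SOX9-only peaks with a SOX word, both intergenic, are near *Tle1*, which encodes a corepressor, and *Clec2d*, a lectin gene.
Tle1 site, chr4:72233964-72234064: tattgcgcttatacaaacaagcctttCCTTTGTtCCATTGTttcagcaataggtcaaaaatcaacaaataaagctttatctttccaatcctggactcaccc
Clec2d site, chr6:129162106-129162206: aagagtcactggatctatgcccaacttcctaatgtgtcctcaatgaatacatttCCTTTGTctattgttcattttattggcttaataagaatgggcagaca

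The MYC-tag signal of the sites was part of the rule and is given as a description. The maximum ran from 1846 to 15178 RPKM (reads per kilobase, scaled to the size of the library) with a median of 3282 RPKM. One fragment was worth 205.1 RPKM in this list, so that the maxima stood for 9 to 74 overlapping fragments, with a median of 16. The median width was 251 bp, against 221 bp for the 3310 dTA-SOX9-only peaks without prior MLL3/4 and 264 bp for the 953 dTA-SOX9 peaks shared with WT-SOX9. The remaining 1268 dTA-SOX9 peaks were also in the no-DOX or dHMG-SOX9 MYC-tag list. Ordered by total signal, the sites made up 48.4% of the strongest decile of the dTA-SOX9 list, 56.7% of the third decile and 43.5% of the weakest, so they were spread over the whole list.

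At the edges of the rule, 189 sites had the lowest maximum of 1846 RPKM, just above the limit of 1800 RPKM that the authors set, and 2240 sites (38.6%) lay above 3600 RPKM. The smallest overlap with a no-DOX MLL3/4 peak was 5 bp, the median was 224 bp and 1 site overlapped by under 10 bp. Just outside, the nearest dTA-SOX9-only peak without prior MLL3/4 was 1 bp from such a peak, and 83 were within 200 bp. A WT-SOX9 MYC-tag peak lay within 500 bp of 100 sites without overlapping them, a no-DOX one within 500 bp of 72 and a dHMG-SOX9 one within 500 bp of 95. The median distance to a WT-SOX9 peak was 70321 bp. The lists were not equally deep in weak peaks: the lowest total signal was 77156 in the WT-SOX9 list and 205320 in the dTA-SOX9 list, and 46.9% of WT-SOX9 peaks had a total below the lowest of dTA-SOX9. In the no-DOX list of replicate 1 alone, which was called without the limit of 1800 RPKM, a MYC-tag peak overlapped 538 sites (9.26%, 8.54 to 10.03), against 0.293% of the sites moved by 10 kb. The share was 12.7% of all dTA-SOX9 peaks, which include those of the control lists that the rule removes, and 0.846% of dTA-SOX9-only peaks without prior MLL3/4, a difference of 8.41 points for the sites (7.60 to 9.23).

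The no-DOX MLL3/4 peaks under the sites were on the strong side of their list. Of 33975 no-DOX MLL3/4 peaks, 5762 (17.0%) carried a site. With each site put on 1 MLL3/4 peak, 5665 peaks had 1 site and 72 had 2 or more. Over the sites, the median rank of these peaks in total signal was the 70.4th percentile and the median width 348 bp, against 296 bp for the whole list. The maximum of dTA-SOX9 and that of MLL3/4 lay a median of 44 bp apart and within 50 bp at 54.9% of the sites. Replicate 1 of no-DOX MLL3/4 alone covered 97.6% of the sites and 14.2% of dTA-SOX9-only peaks without prior MLL3/4 in the pooled list. It is 1 of the 2 samples in the pooled list that separates these classes, so this overlap is largely built in.

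With the dTA-SOX9 transgene induced, most of these sites still carried MLL3/4, at a higher share than in the whole dTA-SOX9 list. With WT-SOX9 induced most did not, at the level of the whole list. An MLL3/4 peak of dTA-SOX9 cells overlapped 4988 of the 5810 sites (85.9%, 84.9 to 86.7), against 71.9% of all dTA-SOX9 peaks and 2.54% of the sites moved by 10 kb. In dHMG-SOX9 cells 4335 sites had one (74.6%, 73.5 to 75.7, against 57.6% of all dTA-SOX9 peaks). In WT-SOX9 cells 1595 had one (27.5%, 26.3 to 28.6), close to the 28.1% of all dTA-SOX9 peaks and above the 1.09% of the moved sites. All sites had an MLL3/4 peak without DOX because the rule asks for it, so nothing is read from the drop below 100%. The lists differ in length, with 25948 MLL3/4 peaks for dTA-SOX9, 23301 for dHMG-SOX9 and 10543 for WT-SOX9. At the sites the shares had the same order as these lengths, which was not so in every class of peaks below. Cut to the 10543 peaks of highest total signal each, the dTA-SOX9 list still overlapped 60.3% (59.1 to 61.6) and the dHMG-SOX9 list 48.2% (46.96 to 49.5) of the sites, against 47.1% and 37.9% of all dTA-SOX9 peaks. Which replicates stand behind the WT-SOX9 MLL3/4 list is unsure, since the descriptions of both its samples name replicate 2.

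Taken site by site, 3492 sites (60.1%, against 47.0% of all dTA-SOX9 peaks) had MLL3/4 in dTA-SOX9 and not in WT-SOX9 cells, and 99 (1.70%, against 3.18%) the reverse. In the lists of equal length this split was 2291 to 382 sites (39.4% and 6.58%, against 27.0% and 7.94%). Between dTA-SOX9 and dHMG-SOX9 it was 953 to 300 (16.4% and 5.16%, against 18.7% and 4.43%), with 4035 sites in both (69.4%, against 53.2%). The most frequent combination was MLL3/4 in dTA-SOX9 and dHMG-SOX9 cells without WT-SOX9, at 2629 sites (45.3%, against 3407 of the 11341 dTA-SOX9 peaks). All 3 lists held 1406 sites (24.2%, against 23.2%), dTA-SOX9 cells alone 863 (14.9%, against 17.0%) and none of the 3 held 473 (8.14%, against 21.5%). WT-SOX9 cells alone kept MLL3/4 at 49 sites (0.843%, against 2.15%). The sites are part of the whole list and carry prior MLL3/4 by the rule. The rule also asks for a MYC-tag peak in dTA-SOX9 cells and none in WT-SOX9 or dHMG-SOX9 cells. The MLL3/4 lists came from these same groups, so these shares and splits are set side by side as a description.

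The other classes of peaks had other shares. The 1268 dTA-SOX9 peaks also in a control MYC-tag list (no-DOX or dHMG-SOX9), 97.2% of them on prior MLL3/4, kept the order of the sites at a higher level, with MLL3/4 at 95.98% in dTA-SOX9 cells, 93.1% in dHMG-SOX9 cells and 56.8% in WT-SOX9 cells. The sites differed from them by -10.1 percentage points (-11.5 to -8.62), -18.5 points (-20.2 to -16.6) and -29.3 points (-32.3 to -26.3). The dTA-SOX9 peaks shared with WT-SOX9 had MLL3/4 in WT-SOX9 cells at 79.3% and in dTA-SOX9 cells at 70.4%. Not all of them carried prior MLL3/4, which the rule asks of the sites, so the 703 that did were compared. These had MLL3/4 in WT-SOX9 cells at 83.6%, a difference of -56.2 points for the sites (-58.98 to -53.05), in dHMG-SOX9 cells at 83.2%, a difference of -8.60 points (-11.4 to -5.46), and in dTA-SOX9 cells at 85.6%, where the difference of 0.219 points had an interval from -2.35 to 3.14. WT-SOX9-only peaks had MLL3/4 at 51.5% in WT-SOX9 cells, 7.16% in dTA-SOX9 cells and 11.3% without DOX. Among dTA-SOX9-only peaks without prior MLL3/4, 38.7% had MLL3/4 in dTA-SOX9 cells and 3.57% in WT-SOX9 cells. That class was defined by the no-DOX MLL3/4 list, so its difference from the sites is no independent comparison. The other classes were set apart from the sites by MYC-tag peaks of the same cultured groups. Their differences from the sites in MLL3/4 of these groups are no independent comparisons either.

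**Figure D1:**
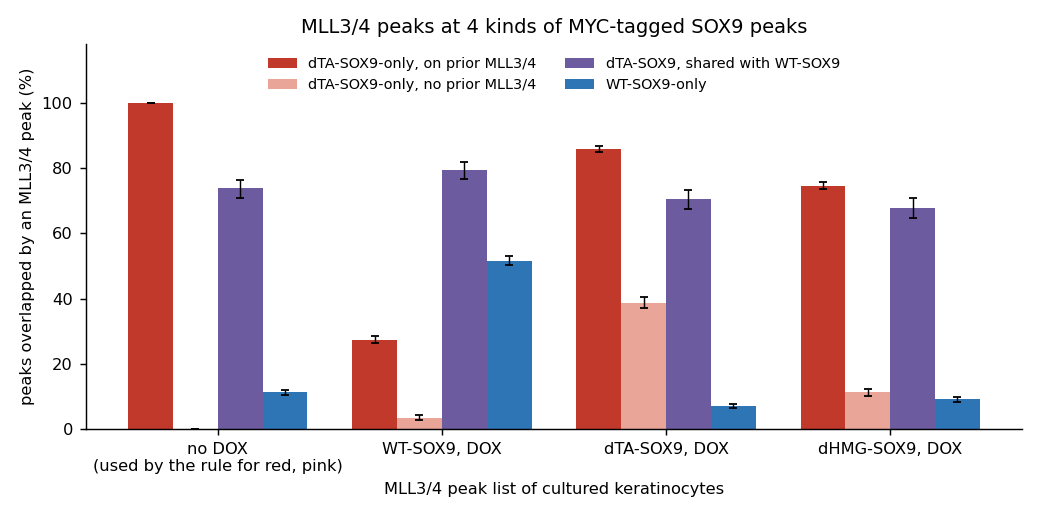
Bars give the percent of peaks in each class that an MLL3/4 peak of cultured keratinocytes overlapped, with 95% Wilson intervals over peaks, for 4 MLL3/4 lists on the horizontal axis. The dTA-only MLL3/4 sites (red) stand at 85.9% with dTA-SOX9 and 27.5% with WT-SOX9, and the first group of bars is fixed by the rule for the red and pink classes.

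Among no-DOX MLL3/4 peaks with no MYC-tag peak, strong ones were kept more often than weak ones in every list, so the sites were also compared within deciles (each 10% of the list) of no-DOX MLL3/4 peaks ranked by total signal. MLL3/4 peaks with a site were present with dTA-SOX9 at 85.8%, against 44.4% of those with no MYC-tag peak of any kind, a difference of 41.4 points (40.3 to 42.5). For dHMG-SOX9 the shares were 75.04% and 47.3%, and for WT-SOX9 27.8% and 10.1%. The interval of the difference lay above 0 in 10 of 10 deciles for each list. It ranged from 3.29 to 41.2 points with dTA-SOX9, from 1.10 to 15.8 points with dHMG-SOX9, which had no MYC-tag peak at these sites by the rule, and from 2.41 to 10.1 points with WT-SOX9. In the ninth decile, 63.3% of MLL3/4 peaks with a site and 22.1% without a MYC-tag peak were present with dTA-SOX9, and in the strongest decile 99.4% and 96.1%. All no-DOX MLL3/4 peaks, which include those with other MYC-tag peaks, were present with WT-SOX9 at 66.3% in the strongest decile and 38.2% in the second. Peaks with a site stood lower there, at 63.3% and 37.3%, and higher in the other deciles. The width of the peaks, which also differed, was not held equal. Peaks with a site were picked for a MYC-tag peak in dTA-SOX9 cells, so the dTA-SOX9 difference is no independent comparison.

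**Figure D2:**
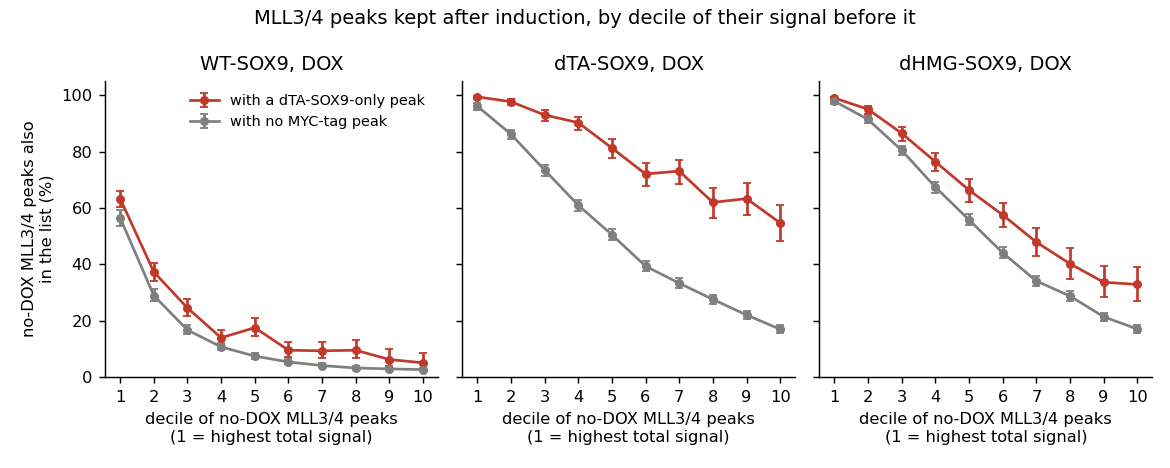
Each panel plots, for deciles of the no-DOX MLL3/4 peaks ordered from the highest to the lowest total signal, the percent also found in the MLL3/4 list of WT-SOX9, dTA-SOX9 or dHMG-SOX9 cells, with 95% Wilson intervals over peaks. Peaks that carry a dTA-only MLL3/4 site (red) lie above those with no MYC-tag peak (grey) in all 10 deciles of each panel, by up to 41.2 points with dTA-SOX9. The red peaks were picked for a MYC-tag peak in dTA-SOX9 cells.

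Retention of MLL3/4 was higher at sites of higher MYC-tag signal. From the weakest to the strongest quintile (each 20% of the sites) by total signal, the share with MLL3/4 went from 76.9% to 96.2% in dTA-SOX9 cells, from 67.0% to 86.4% in dHMG-SOX9 cells and from 20.7% to 38.3% in WT-SOX9 cells. The share of sites with an MLL3/4 peak in skin at D0 stayed between 37.5% and 39.9% over the same quintiles. The share on the no-DOX MYC-tag list of replicate 1 went from 6.71% to 14.2%. Its part in these trends was not tested.

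The AP1 word was the most frequent of the 14 words searched at these sites. It was present in 1574 windows (27.1%, 26.0 to 28.3), against 25.8% of all dTA-SOX9 windows and 2.06% of windows of the same length 1 kb to each side, a ratio of 13.2. Among the other dTA-SOX9 peaks the share was 20.6% in those also in a control MYC-tag list, a difference of 6.51 points for the sites (3.94 to 8.94). It was 26.9% in those shared with WT-SOX9, a difference of 0.23 points (-2.88 to 3.18), and 25.1% in those without prior MLL3/4, a difference of 1.96 points (0.0740 to 3.81), which was 4.59 points (1.09 to 7.95) above 3600 RPKM. WT-SOX9-only peaks held it at 4.71%, lower by 22.4 points (21.1 to 23.7), and MYC-tag peaks without DOX at 11.7%. The share lay between 25.5% and 29.4% in each quintile of total signal. Within 100 bp of the centre it was 43.2%, against 4.09% of the windows 1 kb away.

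Of 1687 AP1 words in the sites, 54.9% had their middle within 20 bp of the centre of the maximum, and the median distance was 18 bp. One word was present at 1466 sites, 2 at 103 and 3 or more at 5. In the sequences printed above, the words of the *Cpe* and *Atxn10* sites lie within 20 bp of the centre and that of the *Itprid2* site at the right end of the window.

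SOX words were less frequent at these sites than at the peaks shared with WT-SOX9 and at WT-SOX9-only peaks. They were in 634 windows (10.9%, 10.1 to 11.7), against 12.6% of all dTA-SOX9 windows and 6.67% of windows 1 kb away. The share was 21.4% in peaks shared with WT-SOX9, a difference of -10.5 points for the sites (-13.3 to -7.87), and 38.1% in WT-SOX9-only peaks, a difference of -27.2 points (-28.7 to -25.6). In the class without prior MLL3/4 it was 13.9%, a difference of -3.015 points (-4.46 to -1.61). In peaks also in a control list it was 10.2%, where the difference of 0.660 points had an interval from -1.29 to 2.42. A longer SOX word, with C as its first letter and T added at its end, was in 1.82% of the windows, and within 100 bp of the centre the usual words were in 19.1%. Both words occurred together at 151 sites, the AP1 word alone at 1423, the SOX word alone at 483 and neither at 3753 (64.6%). The *Lypd6b* sequence above is one of the 151.

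Other words were counted on both strands in the same windows, and no spelled word contains another. The TEAD word (GGAATG) was in 9.66% of the sites, against 9.41% of all dTA-SOX9 windows and 5.63% of windows 1 kb away. RUNX (AACCACA) was in 4.36% (4.38% of all, 2.38% away), GATA in 3.56% (3.77% of all, 2.07% away) and CEBP (TTGCNNAA) in 6.94% (6.3% of all, 4.38% away). These were all above their surroundings and near the level of the whole list. AP2 (GCCNNNGGC) was in 2.74% (2.39% of all, 1.69% away) and GRHL (AACNGGTT), read by the grainyhead-like factors of epidermis, in 1.79% (1.49% of all, 0.731% away). KLF (CCACACCC) was in 1.14% (1.06% of all, 0.731% away), FOX (TGTTTAC) in 1.29% (1.24% of all, 1.299% away) and ETS (CCGGAAG) in 0.499% (0.485% of all, 0.361% away). The rarest were CRE (TGACGTCA) in 0.189% (0.212% of all, 0.0602% away), TP63 in 0.138% (0.132% of all, 0.0516% away) and CTCF in 0.0861% (0.106% of all, 0.232% away). None of the 14 words was found at 2642 sites (45.5%), which says only that these letters were not in the windows.

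**Figure D3:**
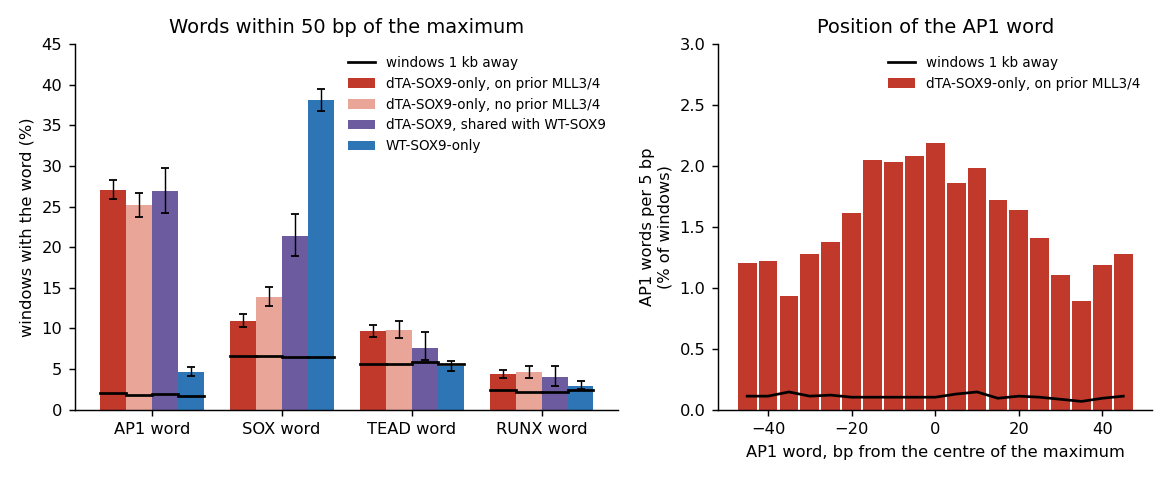
Left, the percent of 101-bp windows with each word, with 95% Wilson intervals over peaks, for 4 classes of peaks; black lines give windows 1 kb away. In the left panel the AP1 word is in 27.1% of the windows of dTA-only MLL3/4 sites and in 2.06% of the windows 1 kb away. Right, AP1 words per 5 bp in percent of windows against their distance from the maximum, for these sites and the windows 1 kb away.

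SOX9 in skin, where the wild-type form was induced, also occupied part of the sites. SOX9 peaks overlapped 28.1% of the sites at W1 (27.0 to 29.3, against 27.4% of all dTA-SOX9 peaks), 29.4% at W2 (28.1% of all), 41.3% at W6 (40.0 to 42.5, 38.1% of all) and 29.2% at W12 (28.1 to 30.4, 30.5% of all). At D0, before the transgene was on, it was 3.27% (4.06% of all). Moved by 10 kb, the sites overlapped SOX9 peaks at 2.35% or less. At none of the 4 induced time points was SOX9 found at 2924 sites (50.3%), and at all of them at 868 (14.9%). These 2 counts were not made for all dTA-SOX9 peaks, so they are not read as particular to the sites. WT-SOX9-only peaks, which the cultured cells bound instead, overlapped in vivo SOX9 at shares within a few points of these, with 29.4% at W1 (difference -1.27 points, -2.98 to 0.431), 40.2% at W6 (1.06 points, -0.788 to 2.91) and 30.2% at W12 (-0.914 points, -2.63 to 0.803). Peaks shared by both forms stood far above, at 60.8% at W1 and 74.1% at W12, as did those also in a control MYC-tag list, at 53.8% and 53.2%, and dTA-SOX9-only peaks without prior MLL3/4 far below, at 6.40% and 11.4%.

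In skin, MLL3/4 overlapped 39.3% of the sites at D0 (38.0 to 40.5, against 32.8% of all dTA-SOX9 peaks), 39.0% at W1 (34.6% of all) and 36.5% at W2 (32.7% of all). It was present at all 3 times at 1607 sites (27.7%) and at none at 2975 (51.2%). Every site carried MLL3/4 in culture by the rule. The counts over the 3 times were not made for all dTA-SOX9 peaks, so nothing particular to the sites is read from them. SOX9 in skin overlapped sites with MLL3/4 there before induction more often than the other sites. Of the 2282 with a D0 MLL3/4 peak, 61.2% had SOX9 at W1 and 42.0% at W12. Of the 3528 without one, 6.77% had SOX9 at W1 and 741 sites at W12. The difference was 54.4 points at W1 (52.2 to 56.5), 46.6 at W6 (44.2 to 48.9) and 20.98 at W12 (18.5 to 23.4), so it was smaller in the later lists. This split was not made for other classes of peaks, so it is not read as particular to the sites.

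Overlap with W12 SOX9 went along with the MYC-tag signal in culture and with the AP1 word. From the strongest to the weakest quintile of the sites, overlap went from 44.9% to 20.4% at W12 and from 31.1% to 25.7% at W1. The AP1 word was in 36.5% of sites on a W12 SOX9 peak and in 23.2% of the others, a difference of 13.3 points (10.7 to 15.9). At W6 the difference was 7.71 points (5.37 to 10.1), at W2 0.33 points (-2.15 to 2.87) and at W1 1.28 points (-1.24 to 3.87). Within each quintile of total signal, the W12 difference lay between 10.01 and 19.6 points. Other classes showed a like difference at W12, with 13.3 points in peaks shared with WT-SOX9, 8.45 in dTA-SOX9-only peaks without prior MLL3/4 and 6.30 in WT-SOX9-only peaks, so it was not particular to these sites. For MLL3/4 in culture the sign was the opposite: the AP1 word was in 26.0% of sites with MLL3/4 in dTA-SOX9 cells and in 33.8% of those without, a difference of -7.84 points (-11.4 to -4.45).

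**Figure D4:**
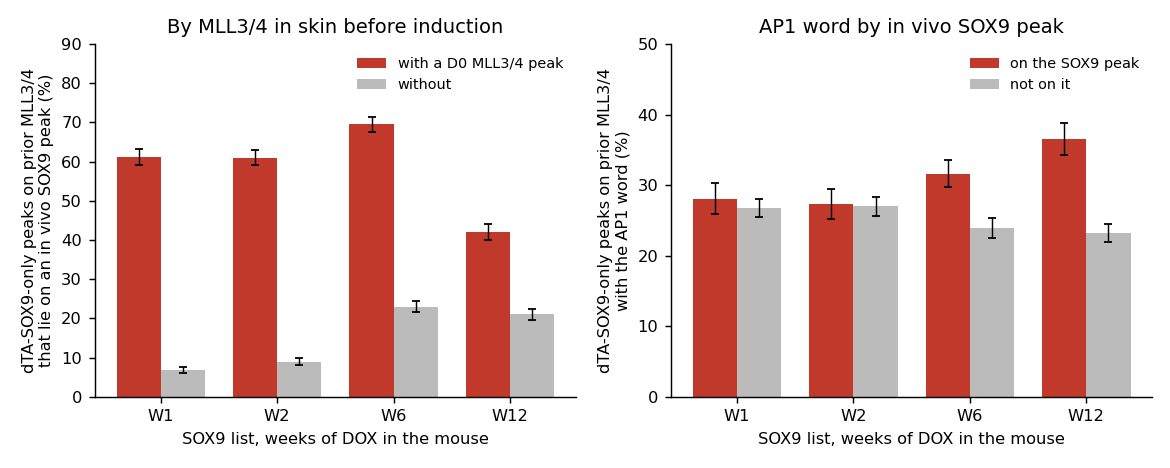
Left, the percent of dTA-only MLL3/4 sites on an in vivo SOX9 peak at each week of DOX, split by a D0 MLL3/4 peak in skin, and right, the percent with the AP1 word among sites on and not on the SOX9 peak of that week; bars have 95% Wilson intervals over peaks. The left split is 61.2% against 6.77% at W1 and narrows to a difference of 20.98 points at W12, and the right split is widest at W12, with 36.5% against 23.2%.

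Most sites lay away from promoters. An annotated start was within 1 kb of 558 sites (9.60%, 8.87 to 10.4, against 11.0% of all dTA-SOX9 peaks), 18.5% with promoters of 2.5 kb. Exons held 2.32%, introns 47.1% and intergenic sequence 41.0%. The median distance to a protein-coding start was 22366 bp. MYC-tag peaks without DOX were at a promoter in 42.4% of cases. Promoter sites were within the interval of intergenic ones in MLL3/4 retention with dTA-SOX9 (86.9%, 83.9 to 89.5, against 86.5%, 85.1 to 87.8, between genes), had it more often with dHMG-SOX9 (82.1%, 78.7 to 85.0, against 72.1%, 70.3 to 73.9) and had the AP1 word at 23.5% (20.2 to 27.2).

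The 6 sites of highest total signal were near *Cpe*, *Ces1a*, *Dusp10*, *Phlda1*, *Mreg* and *Ctif*. The strongest, chr8:64522638-64523206, lay 73757 bp from the start of *Cpe* and had a maximum of 9025 RPKM from 44 fragments. Unscaled MLL3/4 coverage there reached 30 in cells without DOX, 28 in dTA-SOX9 cells and 15 in dHMG-SOX9 cells, and WT-SOX9 cells had no peak. The depth of these MLL3/4 lists is unknown, so the coverages are not compared. SOX9 was found there in skin at W6 and W12.
The site in an intron of *Ces1a*, a carboxylesterase gene (chr8:93018360-93019024, 8820 RPKM), and that near *Mreg* (chr1:72226330-72227197, 5538 RPKM) had no SOX9 peak in skin at any time. The site 50775 bp from *Dusp10*, a phosphatase of the stress kinases p38 and JNK (chr1:184084748-184085322, 8205 RPKM), had SOX9 at W12 alone. The site 76489 bp from *Phlda1*, a gene expressed in follicle stem cells (chr10:111583559-111584406, 8205 RPKM), had SOX9 from W2 on, MLL3/4 in skin at D0 and, with a coverage of 12, MLL3/4 in WT-SOX9 cells. The sixth, in *Ctif*, a translation factor gene, reached 8000 RPKM with SOX9 at W12. All 6 had MLL3/4 in dTA-SOX9 and dHMG-SOX9 cells, and 2 of them in WT-SOX9 cells.

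By nearest start, the sites fell to 3323 protein-coding genes, 2096 of them with 1 site and 163 with 5 or more. The genes with most were *Jag1*, a Notch ligand, and *Sox9* with 14 each, *Klf6*, *Met* and *Myc* with 13 each and *Btbd3* with 12, the last level with *Macrod2*. The sites nearest to *Sox9* itself lay far from it, between 120466 and 803177 bp away, and none was within 50 kb of the gene. Of these 14, 11 had MLL3/4 with dTA-SOX9, 9 with dHMG-SOX9 and 1 with WT-SOX9, and SOX9 overlapped 6 at W6 and 1 at W12. At *Klf6*, a zinc finger factor of the immediate early response, SOX9 in skin overlapped 10 of 13 sites at W12, against 29.2% of all sites. This difference was not tested. At *Met*, the receptor of hepatocyte growth factor, all 13 had MLL3/4 with dTA-SOX9, 7 with dHMG-SOX9 and 2 with WT-SOX9. The 13 nearest to *Myc* lay between 1745 and 627800 bp from its start, and 12, 7 and 3 of them had MLL3/4 with dTA-SOX9, dHMG-SOX9 and WT-SOX9.

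The gene lists below were read as loci, each gene with 50 kb to each side, and 25.5% of 21911 protein-coding loci held a site. Of the integrin and basement membrane genes, which anchor keratinocytes, 12 of 13 loci held one. *Lama3*, the laminin alpha-3 chain, had 10, of which 8 had MLL3/4 with dTA-SOX9 and 2 with WT-SOX9, and 8 had no SOX9 peak in skin. *Itgb6*, an integrin of wounded epithelium, had 6, all with MLL3/4 in dTA-SOX9 and dHMG-SOX9 cells and all with SOX9 at W6. *Itgb1* and *Itgav* had 4 each. Of the actin and YAP/TAZ genes, 12 of 15 loci held a site, led by *Wwtr1*, which encodes TAZ, with 6, and *Actn1* and *Tns4* had 3 each. Among desmosome genes it was 9 of 12, with 6 sites at *Dsg3* and 3 each at *Dsg2* and *Dsc3*, cadherins that join keratinocytes.

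Keratins had a site at 10 of 14 loci, at most 2 each (*Krt14*, *Krt15*, *Krt16* and *Krt80*). Neighbouring keratin loci overlap, so 1 site can count for several. The EGF receptor group had one at 10 of 16 loci, with 5 at *Egfr* and 4 each at the ligands *Epgn* and *Nrg1* and the ERK phosphatase *Dusp6*. TGF-beta and BMP genes had one at 10 of 17, with at most 2 each, for example at *Tgfbr1*, a receptor, and *Smad3*, a signal transducer. These shares all lay above the 25.5% of loci. Longer genes make longer loci, and gene length was not held equal. The rule also asks for MLL3/4 in keratinocytes, so loci with more no-DOX MLL3/4 peaks can hold sites more often. The number of these peaks was not held equal either.

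The remaining lists had lower shares of loci with a site, from 35.7% to 56.3%, also above the 25.5% and with the same limits of gene length and prior MLL3/4. Of epidermal factors 10 of 19 had a site, led by *Trp63* with 8 and *Grhl2* with 4. Of hair follicle stem cell factors 9 of 16 had one, led by *Foxp1* with 11 and *Runx2* with 3. AP1 subunits and relatives had one at 5 of 14 loci, with 4 at *Atf3*, 3 at the AP1-site repressor *Bach1* and 2 each at *Fos* and *Batf3*. MLL3/4 and SWI/SNF complex genes had one at 5 of 14, with 1 each at *Smarca2*, *Arid1a*, *Smarcc1*, *Smarcb1* and *Ep300*.

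At the 7 loci that the study names, *Gata3* and *Sox9* held no site. *Trp63*, the master regulator of epidermis, held 8 with maxima from 1846 to 3487 RPKM, of which 7 had MLL3/4 with dTA-SOX9, 5 with WT-SOX9 and 3 with dHMG-SOX9. SOX9 overlapped 3 of them at each of W1, W6 and W12. At *Runx1* there were 2, both at 3692 RPKM and both with SOX9 at W12. The *Krt5* locus held 1 (chr15:101697404-101697642, 3282 RPKM), 3305 bp from the start of *Krt6a*, with SOX9 from W1 to W12 and MLL3/4 in all 3 induced lists. *Ctnnb1*, the beta-catenin gene, had 1 site 9800 bp from its start with the same pattern. The 3 sites at *Vim*, the vimentin gene (2051, 3692 and 5538 RPKM), had MLL3/4 with dTA-SOX9 and dHMG-SOX9 and neither MLL3/4 with WT-SOX9 nor SOX9 in skin.

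The sites were mostly solitary. Joined over gaps of up to 12.5 kb, 4056 (69.8%) stood alone and 103 were in 19 groups of 5 or more. The largest group had 7, over 25332 bp in *Dlgap1*, all with MLL3/4 in dTA-SOX9 cells, 2 with it in WT-SOX9 cells and all with SOX9 in skin at W6 and W12. Groups of 6 were found at *Vmp1*, *Cd44*, *Tmprss11e*, *Met*, *Adm* and *Usp47*. At *Cd44*, a hyaluronan receptor of basal keratinocytes, each of the 6 had SOX9 in skin at some time, and at *Adm*, the adrenomedullin gene, and *Usp47* 5 of 6 had none.

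The sites were not spread over chromosomes as in skin. Chromosome 18 held 6.42% of them, against 3.21% to 3.76% of the peaks in 7 in vivo lists. Chromosome 6 held 8.50% (5.08% to 5.79% in vivo), chromosome 2 held 9.48% (7.24% to 7.60%) and chromosome 19 held 4.34% (2.76% to 3.24%). Chromosome 12 with 5.28% (4.14% to 4.58%) and, closer to their ranges, 1 and 15 were also above. Lower than in skin were chromosome 4 with 3.68% (5.58% to 6.63%), 5 with 4.13% (5.17% to 5.88%), 13 with 4.41% (4.75% to 6.11%), 16 with 3.31% (4.15% to 4.49%), 9 with 3.72% (5.11% to 5.80%), 14 with 2.15% (3.40% to 3.93%) and 17 with 2.17% (3.48% to 3.99%). The in vivo lists are the 3 for MLL3/4 and the 4 for SOX9 with DOX. The 7 lists of cultured cells, 4 pooled ones for MLL3/4 and 3 for the MYC tag with DOX, departed from them in the same direction on these chromosomes except 1, 12 and 15, where the ranges overlapped. Left out of these ranges were the lists of replicate 1 and the shortest ones, MYC-tag without DOX, which departed in the same direction as the other cultured lists except on 1, 12 and 15, and SOX9 at D0, which lay on the side of the cultured cells on chromosomes 2, 5, 14 and 19. Beyond that, the share of no-DOX MLL3/4 peaks that carried a site also differed, from 21.8% on chromosome 18 and 20.4% on chromosome 6 to 12.1% on chromosome 17 and 9.25% on the X. What moves with these shares was not tested.

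**Figure D5:**
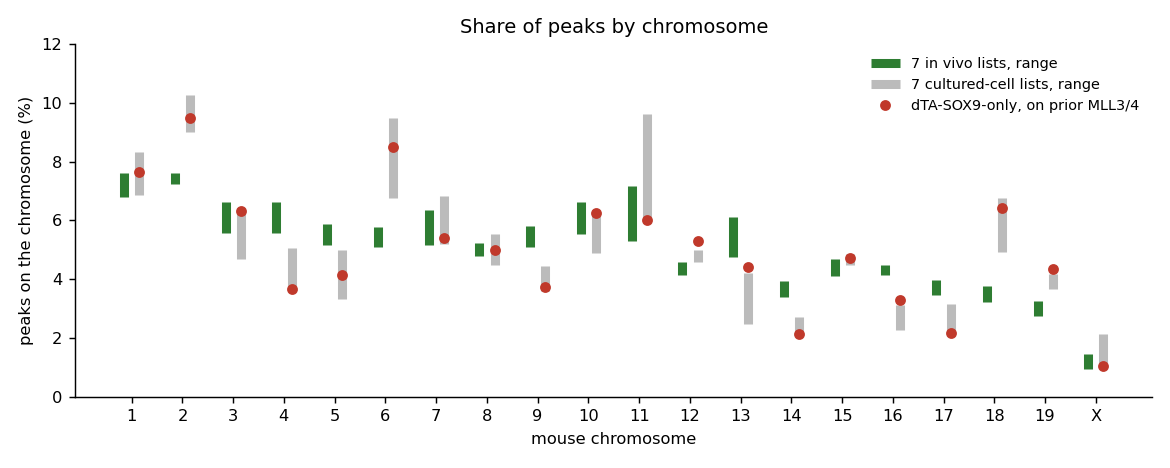
Points give the percent of dTA-only MLL3/4 sites on each mouse chromosome, and thick lines the range of that percent over 7 in vivo lists (green) and 7 lists of cultured cells (grey). On chromosome 18 the point stands at 6.42% above the in vivo range of 3.21% to 3.76%, and on chromosome 4 at 3.68% below 5.58% to 6.63%.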

How the data were processed

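CNR peak lists were deposited for 16 groups pooled from 2 samples each and for replicate 1 of both no-DOX groups. Per the submitters' processing notes, the authors aligned reads to mm10 with Bowtie2 2.2.9, used Picard, SAMtools 1.3.1 and deepTools 3.1.2, and, according to the study's methods, kept fragments of at most 120 bp and called peaks with SEACR (stringent, 0.01). The maximum in SOX9 and MYC-tag lists is RPKM as deposited. In the pooled SOX9 and MYC-tag lists the authors kept peaks above 1800. The methods describe RPKM tracks, but in the 7 pooled MLL3/4 lists the deposited signal is in whole numbers. It was read from these values as unscaled coverage, of unknown depth. The total signal, the second deposited score, is the authors' sum over the bases of a peak.

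Peaks off chromosomes 1 to 19, X and Y (20 in all) were left out. Overlap meant at least 1 bp. Genes came from GENCODE vM21 and sequences from the GRCm38 reference, printed only for windows outside exons and not on chromosome 18. Python 3.11.15, numpy 2.4.6, pandas 2.3.3, scipy 1.17.1 and matplotlib 3.10.9 were used, and the methods were tested on simulated data. The sites, words, gene lists and comparisons were chosen with earlier results of these data known. Named were the 6 sites of highest total signal, the 6 nearest genes with most sites, of each list up to 3 genes with most sites, and 7 loci named by the study. The comparison with shared peaks on prior MLL3/4 was added after seeing the data. Ties, gene groups of 6 or more sites and further examples were named after their values were seen. Alternatives were another overlap, signal limit, distance, window, word, promoter size and list length, and replicate 1 alone.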

Additional observations from a re-analysis of the deposited data

How the results depend on the processing

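Of 56 alternative values, 35 stayed within the interval or spread of the reported value and 21 moved. They cover the number of sites, shares of the sites and 2 differences in the AP1 word. The other differences were not recomputed. With sites kept above 3600 RPKM, 2240 sites remained, the AP1 word was in 29.3%, the SOX word in 13.04%, MLL3/4 overlapped 31.4% (WT-SOX9), 89.9% (dTA-SOX9) and 78.0% (dHMG-SOX9), W12 SOX9 overlapped 38.7%, the no-DOX MYC-tag list of replicate 1 10.8% and promoters 8.84%, and the AP1 share exceeded that of dTA-SOX9-only peaks without prior MLL3/4 by 4.59 points. Windows of 100 bp to each side gave 43.2% (AP1) and 19.1% (SOX), the longer SOX word 1.82%, promoters of 2.5 kb 18.5%, and MLL3/4 lists of equal length 60.3% (dTA-SOX9) and 48.2% (dHMG-SOX9). With the no-DOX lists of replicate 1 alone (without replicate 2), of which the MYC-tag list was called without the limit of 1800 RPKM and the MLL3/4 list was scaled to RPKM and longer (40061 peaks), 5612 sites were found, with MLL3/4 at 25.1% (WT-SOX9), 83.4% (dTA-SOX9) and 70.3% (dHMG-SOX9), SOX9 at 26.3% (W1) and 27.4% (W12), the AP1 word at 27.3%, the SOX word at 11.4% and promoters at 9.53%. The AP1 share then differed from that of dTA-SOX9-only peaks without prior MLL3/4 by 2.69 points and from that of peaks shared with WT-SOX9 by -0.133 points. The latter was also below 0 (-0.459 points) where 50% of the shorter peak had to be covered, and its interval included 0 in the reported value. The causes of these moves were not tested. No paired analysis was possible because each group had 1 list of pooled replicates. Maxima stood for 9 fragments at the weakest sites, which limits what could be called absent from another list.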

Other observations

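The bases beside the AP1 word were uneven at these sites. Of 1687 words, read on the strand that gives TGACTCA, T stood directly before the word in 9.13% (7.85 to 10.6), and A directly after it in 13.5% (11.9 to 15.2). In 240 words of the windows 1 kb away the same values were 15.8% (11.8 to 20.99) and 16.3% (12.1 to 21.4). The RUNX word was in 2.76% of sites with an MLL3/4 peak in skin at D0 and in 5.39% of those without, a difference of -2.62 points (-3.62 to -1.60). This was not particular to the sites, with -2.91 points in peaks shared with WT-SOX9 and -1.98 in WT-SOX9-only peaks. It was -2.17 in peaks also in a control list and -1.31 in those without prior MLL3/4, where the intervals included 0. The 50 percent of sites with the lower total MLL3/4 signal without DOX held the AP1 word at 29.7% (28.1 to 31.4), and the 50 percent with the higher at 24.5% (23.0 to 26.1). Windows that lay mostly in repeats, soft-masked in the reference, were 3.05% of the sites and 21.2% of the windows 1 kb away, and the mean GC content was 43.8%, against 43.3%.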
